A study of Mus musculus with 4 samples.

Results

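The genes of 10 chemokines that stromal cells release in inflammation were followed: Ccl2, Ccl7, Ccl8, Ccl9, Ccl11, Cxcl1, Cxcl5, Cxcl14, Cxcl16 and Cx3cl1. They were found on the arrays by matching the probe accessions to RefSeq transcripts, and all 10 were present, among 21154 genes that could be named this way. Each was read by 1 probe. Total RNA of primary cultured mouse mesenchymal stromal cells (MSCs) was hybridised to 4 one-colour expression arrays. The control array (shControl) came from cells with a retroviral control short hairpin RNA, and the 3 knockdown arrays (shIslr) came from cells with retroviral hairpins to 3 different sequences of Islr, which encodes the secreted and membrane-anchored protein Meflin and is called Meflin in the study. All 4 groups of cells were at passage 5, and all 4, controls included, carried a retroviral hairpin. The labels give neither the strain, age and number of the mice nor whether the 4 cultures came from 1 preparation, so each p-value measures only the spread between these hairpins.

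Chemokines are small secreted proteins that draw leukocytes along a concentration gradient by binding G protein-coupled receptors. They are divided by the spacing of the first conserved cysteines: adjacent in CC chemokines (Ccl), separated by 1 residue in CXC chemokines (Cxcl) and by 3 residues in Cx3cl1. In fibroblasts and MSCs, the IL-1, TNF and Toll-like receptors induce many of them through the transcription factor NF-kB, and marrow stromal Ccl2 is known to release monocytes into the blood.

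As a check of the labels, Islr gave 454 signal units with the control hairpin and 70.5 with hairpin 2, and did not stand well above background with hairpins 1 and 3. Hairpin 2 therefore kept 15.8% of the control level of Islr, while hairpins 1 and 3 were lower by at least 20.5-fold and 29.6-fold, bounds set by the dimmest signal that the scanner software called well above background on those arrays. Each array had between 49.4% and 53.8% of its features well above background and none saturated. All 11 MSC markers were well above background on every array. Summed and divided by the 75th percentile of the array, they gave 1016 with the control hairpin, against 920, 994 and 835 with hairpins 1 to 3. Most of the MSC sum was Col1a2 (259258 signal units with the control hairpin and 235573, 250846 and 213350 with hairpins 1 to 3). Single MSC markers went both ways, with Pdgfra at -0.81 ± 0.61 and Thy1 at 1.12 ± 0.49 (log2). Of 17 leukocyte and macrophage markers, 8 were well above background on each array. The pan-leukocyte gene Ptprc and the macrophage gene Adgre1 were not well above background on any array, while Cd68 and the colony-stimulating factor receptor gene Csf1r were on all 4. Summed over the 17 genes and divided by the 75th percentile of the array, the leukocyte marker signal was 28.1 with the control hairpin, against 29.9, 25.0 and 19.3 with hairpins 1 to 3. Most of the leukocyte sum was the integrin gene Itgam (8880 signal units with the control hairpin and 8743, 7547 and 4960 with hairpins 1 to 3). Cd14 was above the control on all 3 hairpins (0.56 ± 0.18, log2). Below the control on all 3 were Cd68 (-0.64 ± 0.33), Csf1r (-0.31 ± 0.10), Fcer1g (-0.37 ± 0.07) and Cd3e (-0.14 ± 0.07). Itgam, Aif1 and C1qb went both ways. Of 7 endothelial markers, 2 or 3 were well above background (Pecam1 on all 4 arrays, Cdh5 on none), with sums between 7.69 and 8.36. Most of the endothelial sum was Kdr (3532 signal units with the control hairpin and 3303, 3251 and 3357 with hairpins 1 to 3). Vwf was well above background only on hairpins 1 and 3 (55.9 and 188), against 21.5 on the control array and 16.6 on hairpin 2. Of 5 epithelial markers, 2 were well above background on each array, and the sum was 0.528 with the control hairpin against 1.06, 1.21 and 2.92 with hairpins 1 to 3. The keratin gene Krt19 carried it, with 135 signal units on the control and 357, 359 and 1169 on the hairpins, while Krt18 gave 84.2, 58.0, 139 and 76.5 and Epcam, Cdh1 and Krt8 were not well above background on any array. The part of other cell types in the chemokine values below was not tested, and in bulk RNA a change in the number of expressing cells cannot be told apart from a change in RNA per cell.

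The chemokines fell into 3 patterns. Ccl2, Ccl7, Ccl9 and Cxcl1 were above the control array on all 3 hairpins, by a factor of 1.78 or more on hairpins 1 and 3 and by a factor of 1.38 or less on hairpin 2, where Ccl7 and Ccl9 differed by less than the error of the scanner. Cx3cl1 was below the control on all 3 hairpins, on hairpin 1 by less than the error of the scanner. Ccl8, Cxcl5 and Cxcl16 lay above the control on hairpins 1 and 3 (Ccl8 on hairpin 1 by less than the error of the scanner) and below it on hairpin 2. Cxcl16 on hairpins 1 and 3 and Cxcl5 on hairpin 2 differed by little more than that error. Ccl11 and Cxcl14 were not well above background on any array. Differences are log2 differences from the control array after each array was scaled to its 75th percentile, and means are given ± SD over the 3 hairpins (n = 3). No chemokine passed limma's test over all 13564 genes kept (Benjamini-Hochberg adjusted p from 0.964 to 0.998, 8 genes tested), and 0 had an unadjusted p under 0.05. Over all genes, limma called 0% higher and 0.347% lower, and 206 higher and 450 lower had an unadjusted p under 0.05. A gene was kept if above background on the control array alone, or on all 3 hairpins. The rule was thus not even between lower and higher genes. No lower call was left with a filter on all 4 arrays, with no filter, with an intensity trend, with normexp or with any hairpin left out.

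**Figure D1:**
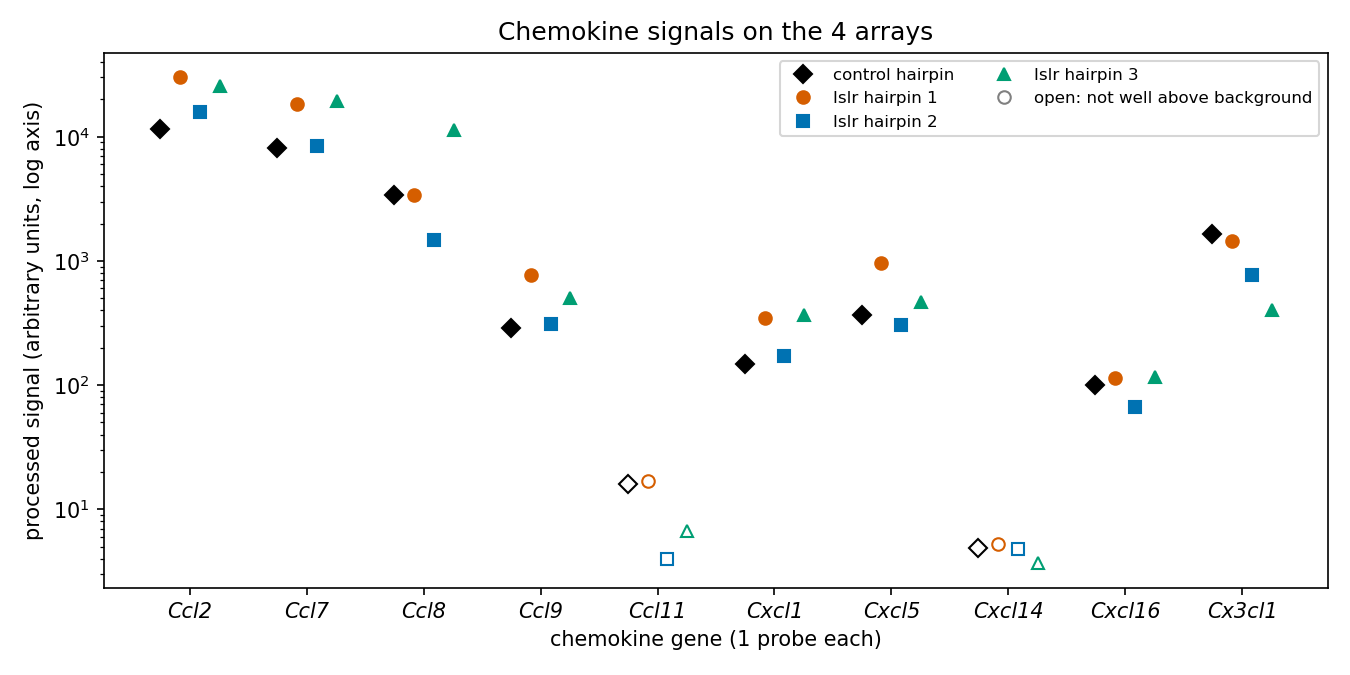
Processed signal (log axis, arbitrary units) of the 10 chemokine probes on the control array and the 3 Islr hairpin arrays; open symbols were not well above background. Levels of different probes are not comparable. Ccl2, Ccl7, Ccl9 and Cxcl1 show hairpins 1 and 3 above the control and hairpin 2, while Cx3cl1 is highest on the control array and lowest on hairpin 3.

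The RefSeq promoter table (GRCm38.p6) held 5 of the 10 genes: Ccl8, Ccl9, Cxcl1, Cxcl14 and Cx3cl1. The 250 bases before the transcription start are shown for 4 of them because they span the patterns seen: Cxcl1 and Ccl9 were higher on all 3 hairpins, Ccl8 went both ways and Cx3cl1 was lower on all 3. The windows lie at chr5:90890995-90891244 (plus strand), chr11:83578637-83578886 (minus strand), chr11:82114935-82115184 (plus strand) and chr8:94771930-94772179 (plus strand). Capitals mark matches, on either strand, to the kB consensus bound by NF-kB, to the AP-1 motif TGANTCA and to the TATA box TATAAA.
Cxcl1: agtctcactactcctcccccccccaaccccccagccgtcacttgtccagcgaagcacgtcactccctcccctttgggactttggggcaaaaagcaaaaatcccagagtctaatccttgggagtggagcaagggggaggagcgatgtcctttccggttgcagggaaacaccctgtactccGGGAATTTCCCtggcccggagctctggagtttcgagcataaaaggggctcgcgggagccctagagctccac
Ccl9: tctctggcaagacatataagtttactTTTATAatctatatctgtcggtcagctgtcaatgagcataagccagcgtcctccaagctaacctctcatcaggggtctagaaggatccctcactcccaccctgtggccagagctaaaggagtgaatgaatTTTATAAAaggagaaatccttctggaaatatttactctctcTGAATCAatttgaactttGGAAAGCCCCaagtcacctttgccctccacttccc
Ccl8: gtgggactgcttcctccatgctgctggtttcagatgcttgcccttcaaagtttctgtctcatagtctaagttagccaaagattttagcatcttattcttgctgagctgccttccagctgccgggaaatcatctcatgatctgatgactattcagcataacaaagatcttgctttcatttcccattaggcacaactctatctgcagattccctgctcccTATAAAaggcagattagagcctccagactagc
Cx3cl1: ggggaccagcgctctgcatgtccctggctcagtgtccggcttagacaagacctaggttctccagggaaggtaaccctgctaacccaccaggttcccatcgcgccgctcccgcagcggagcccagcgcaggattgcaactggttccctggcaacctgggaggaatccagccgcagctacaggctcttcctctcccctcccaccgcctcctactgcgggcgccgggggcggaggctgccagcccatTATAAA

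The kB consensus matched in 2 of the 5 windows, those of Cxcl1 and Ccl9, against 3.90% of all 32851 promoter windows of the same length. In Cxcl1 it matched on both strands at overlapping positions that begin 71 and 70 bases before the start. In Ccl9 it began 35 bases before the start, and the AP-1 motif, held by 6.75% of all windows, lay 53 bases before it. In Ccl9 the match sequences of the TATA box overlapped each other at 94 and 92 bases before the start, with a further match at 224. TATAAA was found in 3 of the 5 windows (Ccl8, Ccl9 and Cx3cl1) against 12.4% of all windows, 32 bases before the start in Ccl8 and 6 bases before it in Cx3cl1. The Cxcl14 window held none of the 3 motifs. These matches describe letters, and no link to the array values was tested. Ccl2, Ccl7, Cxcl5 and Cxcl16, also measured on the arrays, had no window to search.

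Among CC chemokines, Ccl2 is the main monocyte attractant and signals through the receptor Ccr2. Its probe is printed 10 times on each array, and the mean signal over the 10 spots was 11579 with the control hairpin, 30102 with hairpin 1, 15718 with hairpin 2 and 25830 with hairpin 3. Single spots ranged from 11041 to 12384 on the control, 28048 to 32938 on hairpin 1, 14562 to 16821 on hairpin 2 and 24503 to 27934 on hairpin 3. Before scaling, the spots of each array did not overlap with those of any other array. How often this held for other probes printed several times was not counted. Their SD within an array was between 0.06 and 0.07 on the log2 scale, which measures printing and scanning and not the variation between cultures. After scaling, Ccl2 was 2.77-fold higher than the control on hairpin 1, 1.38-fold on hairpin 2 and 2.28-fold on hairpin 3. The mean log2 difference was 1.04 ± 0.52 (n = 3, limma adjusted p = 0.964), and 0.841% of the genes tested had a higher mean.

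**Figure D2:**
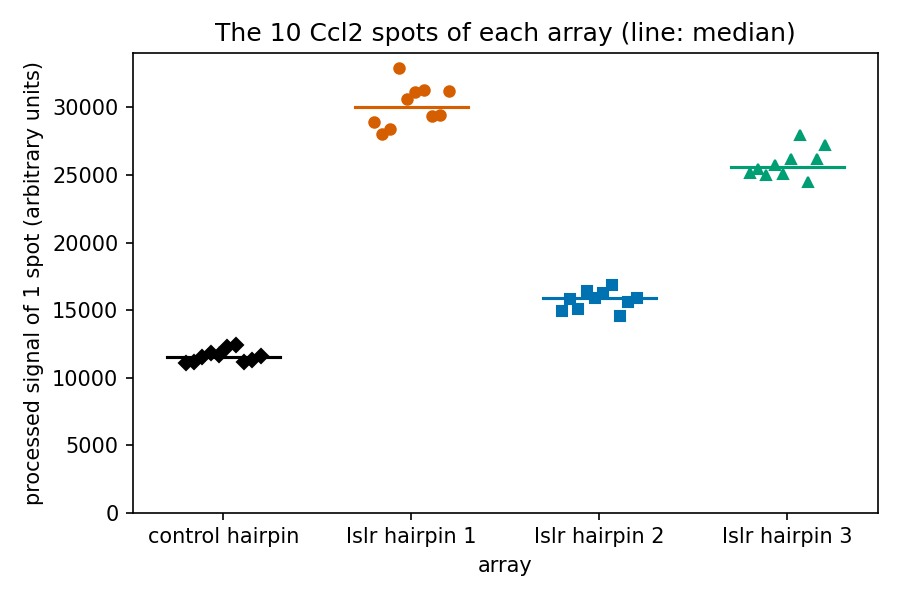
Processed signal of each of the 10 Ccl2 spots on the 4 arrays (arbitrary units, linear axis from 0), before scaling between arrays, with the median as a line. The control spots sit between 11041 and 12384, and the 3 hairpin arrays form separate groups above them.

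Ccl7, a monocyte attractant that also binds Ccr2, had signals of 8170 with the control hairpin, 18186 with hairpin 1, 8482 with hairpin 2 and 19256 with hairpin 3. Hairpin 2 lay at the control level and the other 2 hairpins at more than 2-fold above it. Its log2 differences were 1.25, 0.08 and 1.27 on hairpins 1 to 3, a mean of 0.86 ± 0.68 (n = 3, limma adjusted p = 0.964). The scanner software assigns each bright spot an error close to 10% of its signal, which gives a log2 difference between arrays an error of 0.20. The Ccl7 differences on hairpins 1 and 3 were several times that error, and the difference on hairpin 2 was below it. The scanner error covers a spot within 1 array and does not measure the variation between cultures.

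Ccl9 binds the receptor Ccr1 of monocytes and other myeloid cells. Its signal was 291 with the control hairpin, 776 with hairpin 1, 310 with hairpin 2 and 507 with hairpin 3. It was 2.85-fold higher on hairpin 1 and 1.78-fold higher on hairpin 3, while hairpin 2 differed by 0.12 on the log2 scale, within the scanner error of 0.21. The mean difference was 0.82 ± 0.70 (n = 3, limma adjusted p = 0.964), and without hairpin 1 it was 0.48.

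Ccl8, also of the monocyte attractant group, is a ligand of Ccr8 in the mouse. It had the widest spread between hairpins of the 8 chemokines tested. Its signal was 3375 with the control hairpin, 3368 with hairpin 1, 1463 with hairpin 2 and 11414 with hairpin 3. Hairpin 1 equalled the control within the scanner error, hairpin 2 was 2.27-fold lower and hairpin 3 was 3.45-fold higher, so that hairpins 2 and 3 differed by 7.84-fold. The mean difference was 0.23 ± 1.49 (n = 3, limma adjusted p = 0.995), and without hairpin 3 it was -0.55. The spread between hairpins exceeded the mean.

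Ccl11, known as eotaxin, attracts eosinophils through Ccr3. Its signals of 16.0, 16.8, 3.99 and 6.67 with the control hairpin and with Islr hairpins 1 to 3 were not well above background, so no fold is given. In the order of coding genes on chromosome 11 in RefSeq (GRCm38.p6), Ccl2, Ccl7, Ccl11, Ccl12, Ccl8 and Ccl1 follow each other without another coding gene between them. Ccl2 and Ccl7 at the start of this run showed like differences on hairpins 1 and 3. Ccl8 in the same run did not show them on hairpin 1, and Ccl11, Ccl12 and Ccl1 were not well above background on any array. Ccl9 stands in a second run, Ccl5, Ccl9, Ccl6, Ccl3 and Ccl4. There Ccl5, a T cell and monocyte attractant, had signals of 23114, 29475, 30602 and 18331 with the control hairpin and with Islr hairpins 1 to 3, a mean log2 difference of 0.19 ± 0.43 (n = 3).

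Among CXC chemokines, Cxcl1 and Cxcl5 attract neutrophils through Cxcr2. Cxcl1 had signals of 149 with the control hairpin, 344 with hairpin 1, 171 with hairpin 2 and 367 with hairpin 3. As for Ccl2 and Ccl7, hairpins 1 and 3 stood apart from the control and hairpin 2. Cxcl1 was 2.47-fold and 2.52-fold higher on hairpins 1 and 3, and its difference of 0.22 on hairpin 2 was near the scanner error of 0.21. The mean difference was 0.95 ± 0.63 (n = 3, limma adjusted p = 0.964), and 1.20% of the genes tested had a higher mean. With normexp background correction and quantile normalization the differences on hairpins 1 to 3 were 1.04, 0.17 and 1.11.

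Cxcl5 had signals of 369 with the control hairpin, 957 with hairpin 1, 303 with hairpin 2 and 469 with hairpin 3. Only hairpin 1 stood more than 2-fold from the control. It was 2.77-fold higher there, while hairpin 2 was at -0.26 and hairpin 3 at 0.38 on the log2 scale. The mean difference was 0.53 ± 0.87 (n = 3, limma adjusted p = 0.970). Without hairpin 1 it was 0.06, and without hairpin 2 it was 0.92. Cxcl5 and Cxcl1 belong to a run of neutrophil and platelet chemokine genes on chromosome 5, in which Ppbp, Pf4, Cxcl3, Cxcl15 and Cxcl2 were not well above background on any array.

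Cxcl16 and Cx3cl1 differ from the other members in being made as membrane proteins, which the proteases Adam10 and Adam17 release. Cxcl16, the ligand of Cxcr6, had signals of 100.1 with the control hairpin, 114 with hairpin 1, 66.6 with hairpin 2 and 116 with hairpin 3. The mean difference was -0.02 ± 0.47 (n = 3, limma adjusted p = 0.998), with hairpin 2 at -0.56 and the others at 0.28 and 0.24. The mean turned positive after quantile normalization (0.017) and after normexp with quantile normalization (0.029), but not with median centring (-0.014) or the series table (-0.057). Without hairpin 2 it was 0.26.

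Cx3cl1, called fractalkine, holds and attracts monocytes and microglia that carry Cx3cr1. It was the 1 member below the control on all 3 hairpins, with signals of 1638 with the control hairpin, 1444 with hairpin 1, 776 with hairpin 2 and 403 with hairpin 3. Hairpin 1 differed from the control by -0.09 on the log2 scale, within the scanner error. Hairpin 2 was 2.08-fold lower and hairpin 3 was 3.98-fold lower. The mean difference was -1.04 ± 0.95 (n = 3, limma adjusted p = 0.964), and 3.08% of the genes tested had a lower mean. Without hairpin 3 the mean was -0.57. The gene lies between Ccl22 and Ccl17 on chromosome 8. Ccl22 was not well above background, and Ccl17, a T cell attractant, had signals of 57.9, 64.4, 34.1 and 31.2 with the control hairpin and with Islr hairpins 1 to 3.

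Cxcl14, a CXC chemokine of skin and stroma, had signals of 4.92, 5.26, 4.78 and 3.67 with the control hairpin and with Islr hairpins 1 to 3, none of them well above background.

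**Figure D3:**
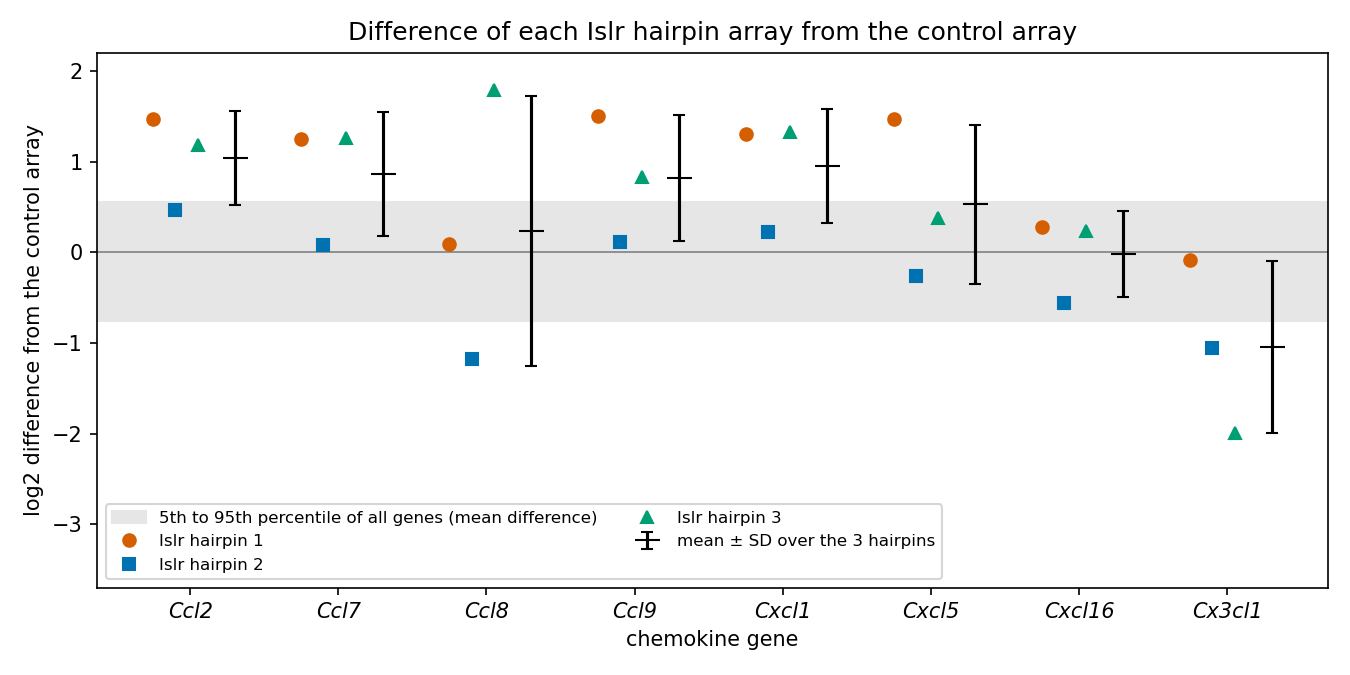
Log2 difference from the control array of each Islr hairpin array, for the 8 chemokines above background, with the mean ± SD over the 3 hairpins; the grey band spans the 5th to the 95th percentile of the mean differences of all 13564 genes (-0.76 to 0.56). Hairpin 2 gives the lowest of the 3 differences in every gene shown except Cx3cl1.

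Counted together, 4 of the 8 chemokines tested were above the control on all 3 hairpins, against 27.6% of all genes, and 1 was below on all 3, against 24.6%. All 3 differences share the control array. Because the chemokines were chosen with earlier results of these data known, their counts here and below only describe the list. At least 2-fold differences on all 3 hairpins were seen in 0 chemokines, against 0.236% of all genes higher and 1.68% lower. On hairpin 1, 5 chemokines were at least 2-fold higher (1.46% of all genes) and 0 were at least 2-fold lower (4% of all genes). On hairpin 2, 0 were at least 2-fold higher (1.88%) and 2, Ccl8 and Cx3cl1, were at least 2-fold lower (4.09%). On hairpin 3, 4 were at least 2-fold higher (3.17%), namely Ccl2, Ccl7, Ccl8 and Cxcl1, and Cx3cl1 was at least 2-fold lower (5.44%). These shares include genes not well above background on every array. Among the 12715 genes above background on all 4 arrays, as the 8 chemokines were, the share past 2-fold with every hairpin was 0.0944% upward and 0.307% downward. On hairpins 1, 2 and 3 singly, 1.17%, 1.5% and 2.87% of those genes were at least 2-fold higher and 1.53%, 2.17% and 3.17% lower.

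For hairpins 1, 2 and 3 the median difference of the 8 genes was 1.28, -0.09 and 1.01, beside medians of all genes between -0.01 and 0.05. For the mean of the hairpins it was 0.67, beside 0.01 for all genes. Ccl2, Ccl7 and Cxcl1 were at least 2-fold higher on both hairpins 1 and 3, a combination met by 0.634% of all genes. In 7 of the 8 chemokines the lowest of the 3 differences was on hairpin 2, and this held for 33.3% of all genes. Neither the pair of hairpins nor the count of lowest differences was set before the values were seen, so both shares only describe them. Of the 3 Islr hairpin arrays, hairpin 2 also kept the most Islr signal, but a link to the chemokine values was not tested. With 1 array per hairpin, a difference between hairpins has no replicate check.

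By the root mean square distance between the 3 hairpin differences, the 5 genes nearest to Ccl2 among 12715 genes above background on all 4 arrays were Mettl24 (distance 0.16 on the log2 scale), Cxcl1 (0.19), Gpr39 (0.20), Gask1b (0.21) and Fam161a (0.23). Ccl7 ranked at position 9 and Ccl9 at position 13. Cxcl5 ranked at position 251, Cxcl16 at 5143, Ccl8 at 9395 and Cx3cl1 at 12575. The distance uses 3 values per gene that share the control array.

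Of 28 other chemokine genes, 26 were on the arrays, 9 were well above background on at least 1 array and 8 could be tested. None of the 8 was above the control on all 3 hairpins, against 27.6% of all genes. Below it on all 3 were 2 (Ccl3 and Ccl27a), against 24.6% of all genes, and none of the 8 passed limma's test. The median of their mean differences was -0.25. Cxcl12, the stromal factor that holds blood stem cells in the marrow, had signals of 26507, 25840, 22083 and 14142 with the control hairpin and with Islr hairpins 1 to 3. Cxcl10, an interferon-induced T cell attractant, had signals of 4394, 3527, 7200 and 4875, highest on hairpin 2, where the median of the chemokines described above was lowest. Ccl25 (mean 0.33 ± 0.33, n = 3), Ccl19 (-0.16 ± 0.32), Ccl27a (-0.33 ± 0.19) and Ccl17 (-0.45 ± 0.61) had means below 2 SD of the hairpins in size. Ccl3 reached 50.9 with the control hairpin and was well above background otherwise only on hairpin 2 (32.5), and Ccl4 was well above background only on hairpin 3 (26.2).

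Of 18 chemokine receptor genes, all on the arrays, 3 could be tested. The receptor genes Ccr1, Ccr2, Ccr3, Cxcr2 and Cx3cr1 were not well above background on any array. Cxcr6, the receptor of Cxcl16, was at 42.5 with the control hairpin, against 47.1, 49.5 and 54.3 with hairpins 1 to 3, a mean of 0.29 ± 0.08 (n = 3, limma adjusted p = 0.964). Ccr8 was at 37.9, 42.9, 25.7 and 46.6. Ccr6, at 57.2 on the control array, was not well above background on any hairpin array, and entered the test through the control array alone. Against the dimmest called signal of each hairpin array, averaged over the 3 on the log2 scale, it was at least 3.05-fold lower. Of 5 atypical receptors, which take up chemokines without the usual signal, 3 were tested. Ackr3, which removes Cxcl12, had signals of 1190 with the control hairpin, against 1227, 1577 and 4614 with hairpins 1 to 3, a mean of 0.85 ± 0.99 (n = 3), while Ackr2, which takes up CC chemokines, was at 0.60 ± 0.36 and Ccrl2 at -0.18 ± 0.22.

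Upstream of the chemokines, 24 of 25 genes of IL-1, TNF and Toll-like receptor signalling to NF-kB were tested. Of these, 8 were above the control on all 3 hairpins, against 27.6% of all genes. Below on all 3 were 2, against 24.6% of all genes, and 14 of the list went both ways. None of the 24 passed limma's test, and their median difference was 0.03. The NF-kB subunit gene Rela was at -0.01 ± 0.09 (n = 3). The lipopeptide receptor gene Tlr2 had signals of 389 with the control hairpin, against 513, 497 and 1026 with hairpins 1 to 3 (0.77 ± 0.58), and the double-stranded RNA receptor gene Tlr3 was at 0.56 ± 0.54. The IL-33 receptor gene Il1rl1 had signals of 18683 with the control hairpin and 14664, 10772 and 5060 with the Islr hairpins in order, a mean of -0.96 ± 0.82 that did not pass limma's test. The adaptor gene Myd88 was at -0.63 ± 0.70.

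Of 10 NF-kB feedback genes, most of which encode proteins that damp NF-kB, 2 were above the control on all 3 hairpins, 0 were below on all 3 and 8 went both ways, with a median of 0.10. Nfkbib was at 0.43 ± 0.19, Nfkbiz at 0.43 ± 0.41, Tnfaip3 at 0.14 ± 0.42 and Cyld at -0.35 ± 0.53 (n = 3 each). Tnfaip3 was highest on hairpin 2, with a signal of 3598 against 2388 on the control array. Of 8 genes of IL-4 and IL-13 signalling, the pathway that induces Ccl11 in fibroblasts, 2 were above on all 3 hairpins, 1 below and 5 went both ways. Their median was -0.03, with Il13ra1 at 0.49 ± 0.42, Il4ra at 0.26 ± 0.22, Stat6 at -0.28 ± 0.25 and Il13ra2, not well above background on hairpin 2, at -0.38 ± 0.58. None of these NF-kB feedback, IL-4 and IL-13 genes passed limma's test. Beside the counts of both lists, 27.6% of all genes were above the control on all 3 hairpins and 24.6% were below.

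Proteases that cut or release chemokines had a median of -0.56 over the 8 of 12 tested: 0 were above the control on all 3 hairpins, 3 were below on all 3 and none passed limma's test. Of all genes, 27.6% were above on all 3 and 24.6% were below. Adam10 and Adam17, which shed Cx3cl1 and Cxcl16, were at -0.07 ± 0.31 and -0.17 ± 0.21 (n = 3). Dpp4, which trims the amino end of many chemokines, was not well above background. Its relative Fap was at -2.31 ± 0.44 (limma adjusted p = 0.319). Mmp2, which cuts Ccl7, gave 208 with the control hairpin, 37.4 with hairpin 1 and 104 with hairpin 2, and 15.7, not well above background, with hairpin 3. Mmp14 was at -0.72 ± 0.51, and Mmp9 was well above background only on the control array (46.1) and hairpin 2 (47.3). Of 8 heparan sulfate carriers tested, which hold chemokines at the cell surface, 1 was above the control on all 3 hairpins and 2 were below. Their median was -0.11, with Sdc3 at 0.61 ± 0.34, Sdc2 at -0.42 ± 0.36, Hspg2 at -0.38 ± 0.23 and Gpc4 at -0.24 ± 0.54.

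**Figure D4:**
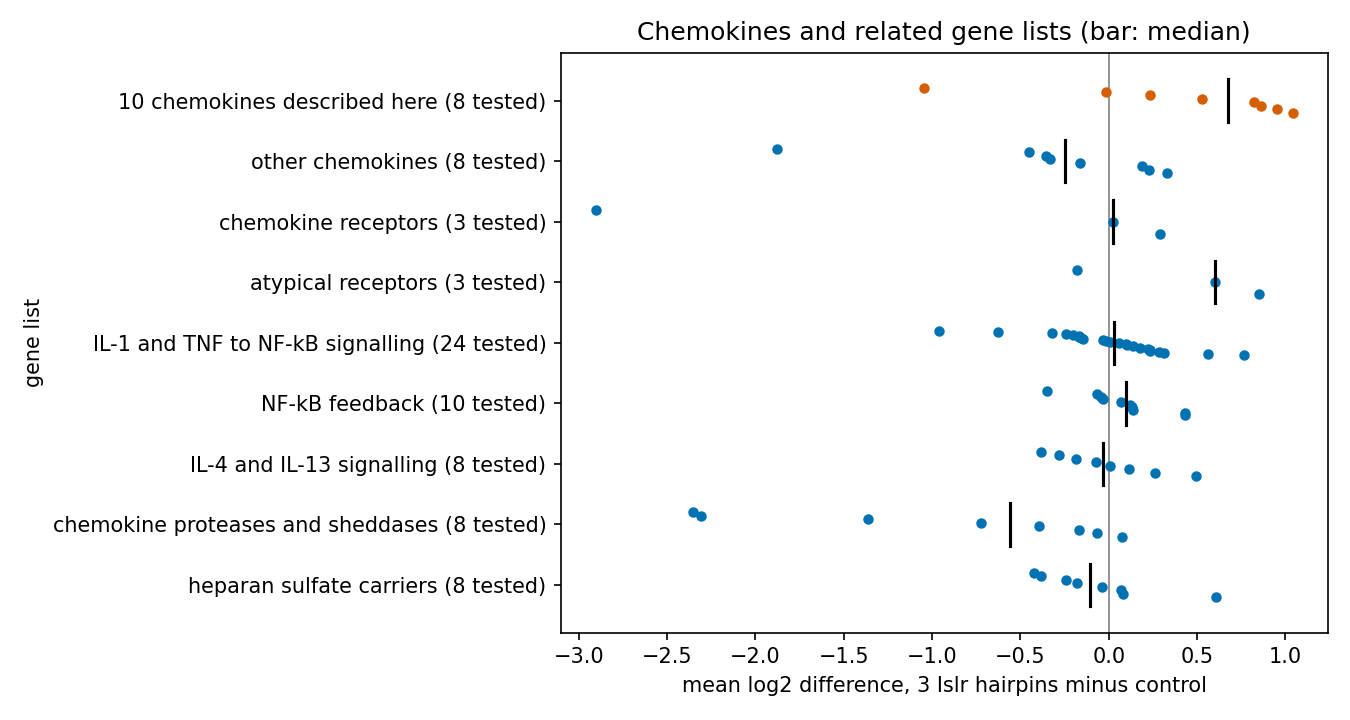
Mean log2 difference of the 3 Islr hairpin arrays from the control array for each tested gene of the chemokines described here and of 8 related lists; each point is 1 gene and the bar is the list median. The chemokines described here have a median of 0.67, the other chemokines -0.25 and the proteases -0.56. Points of Ccr6, Ccl3, Mmp2, Mmp3, Mmp9 and Il13ra2 rest in part on signals below background.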

How the data were processed

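Per the file headers, the authors scanned 4 one-colour Agilent arrays (design 028005, genome build mm9) with Agilent Feature Extraction, version 11.5.1.1, under protocol GE1_1105_Oct12. The analysis started from the deposited processed intensity per feature, background-subtracted and detrended within the array. All 4 arrays lay on 1 slide. The deposited series table held the same intensity times 1 constant factor per array (2.02 to 2.25), whose choice is not given in the sources used here.

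Spots with an outlier flag were left out, and spots of a probe were averaged as log2 values after subtracting the log2 of the array's 75th percentile. Accessions without version were matched to RefSeq (GRCm38.p6), which named 28026 of 55681 probes. Named probes were kept if called well above background for the control or for each of the 3 Islr hairpins (17840 probes, 13564 genes, the brightest probe per gene). limma 3.58.1 in R 4.3.3 (lmFit, eBayes, two-sided) compared the 3 hairpins with the single control array, which is assumed to vary like the hairpins; adjusted p under 0.05 was the threshold. The fit was tested on simulated data with log2 changes of 1 and 2 in either direction. At a low noise, the same for every gene, it called every changed gene and made 6 false calls. With the spread of each gene between these hairpins it called none, though its mean estimates stayed close to the changes put in. A missed threshold here therefore does not show that a gene did not change. The number of arrays limits the precision.

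All 10 chemokines, Islr, the 4 largest differences of each list, the other chemokines above background and the 5 genes nearest to Ccl2 were named. Rela, Adam10, Adam17, Dpp4, Pdgfra, Thy1, Col1a2, Itgam, Cd14, Fcer1g, Cd3e, Aif1, C1qb, Kdr and Vwf were named after their values were seen. So were the epithelial genes and the chemokine neighbours and receptors. The chemokines and lists were chosen with earlier results of these data known. Alternatives were 2 other scalings, normexp (offset 50, on median spot signals), the series table, other filters, the mean over probes, an intensity trend, a 1.5-fold rule, outlier spots kept (added after seeing the data) and each hairpin left out.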

Additional observations from a re-analysis of the deposited data

How the results depend on the processing

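Over 11 other settings, the 8 chemokines gave 88 mean differences, of which 84 kept their direction and 0 passed limma's adjusted threshold. The exceptions were Ccl8 without hairpin 3 and Cxcl16 without hairpin 2, after quantile normalization (0.017) and after normexp background correction with quantile normalization (0.029). With a hairpin left out, Ccl8 ranged from -0.55 to 0.94 and Cxcl16 from -0.16 to 0.26. The other filters, the mean over probes and the outlier spots kept gave each of the 8 chemokines exactly its main value. That agreement was fixed in advance, because each was read by 1 probe, above background on all 4 arrays and without a flagged spot. The median of the chemokines, 0.67, ranged from 0.38 with no filter, which adds the undetected Ccl11 and Cxcl14, to 0.69 with quantile normalization, and from 0.39 to 1.06 when a hairpin was left out. Chemokines at least 2-fold higher on every hairpin used numbered 0, and between 0 and 3 when a hairpin was left out, 3 being the count without hairpin 2; those at least 2-fold lower numbered between 0 and 1. The 1.5-fold rule gave 0 in each direction.

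Over all genes, limma called 47 lower, 75 with quantile normalization, and 0 with a filter on all 4 arrays, with no filter, with normexp, with an intensity trend or when any hairpin was left out (0 to 0). It called 0 higher in every setting run; at an unadjusted p under 0.05 there were 206 higher and 450 lower. The 2-fold rule gave 32 higher and 228 lower. A 1.5-fold rule gave 130 and 412, a filter on all 4 arrays 12 and 39, normexp 5 and 44, and no filter gave 144 higher. Leaving out a hairpin gave 43 to 86 higher and 265 to 350 lower. The cause was not tested, except that the filters change which genes are tested and the leave-outs reduce the arrays. No paired analysis was possible because the control group has 1 array and the hairpin numbers have no counterpart in it. With 1 control array and 1 array per hairpin, differences between cultures cannot be told apart from differences between hairpins. Ccl11 and Cxcl14 are limited by signal over background.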
